A study of Bos taurus with 6 samples.

Results

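The VEGF system of cultured bovine ovarian stromal cells was described through the mRNA levels of 10 genes. They were 5 ligands (VEGFA, VEGFB, VEGFC, VEGFD and PGF), 3 receptor tyrosine kinases (FLT1, KDR and FLT4) and 2 neuropilin co-receptors (NRP1 and NRP2). These 10 genes were taken by gene symbol from the platform annotation of a microarray, out of 18010 genes with a row of their own, and each of the 10 had 1 row. The samples were 3 of stromal cells from ovarian tumor and 3 of stromal cells from normal ovary of Bos taurus. Both groups were grown in DMEM/F12 medium with 10% FKS, as the labels abbreviate it, and were given no treatment. The labels give neither the type of tumor nor the age or breed of the animals, and do not tell from how many animals or cultures each group was taken. The p-values below therefore rest on the spread among these 6 samples alone, part or all of which may be technical.

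VEGF ligands are secreted growth factors that drive the growth of blood and lymphatic vessels, and in the ovary they serve the vessels that form around growing follicles and in the corpus luteum. In human and mouse, FLT1 (VEGFR1) binds VEGFA, VEGFB and PGF, KDR (VEGFR2) is the main signaling receptor for VEGFA, and FLT4 (VEGFR3) binds VEGFC and VEGFD. Fibroblasts are known as a source of the ligands, while KDR and FLT4 are best known from endothelium. Neuropilins bind VEGF ligands and, separately, the class 3 semaphorins, which are secreted guidance proteins. No sequence of these genes is printed here.

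Levels are RMA values on the log2 scale, so that a difference of 1 is a 2-fold difference. Each sample had 24415 values with a median between 4.45 and 4.55. Pearson correlations over all rows were at least 0.9882 within the tumor group, at least 0.9832 within the normal group and at most 0.9737 between the groups. A guide to background was the level under which 95% of the group means of 717 olfactory receptor rows lay, 3.54. Stromal cells are not known to use these genes. This level is called the olfactory receptor level below. Rows differ in how strongly they respond, so levels are compared between samples and not between genes, and reads of separate transcript forms, such as soluble FLT1 or the VEGFA splice forms, could not be told apart.

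The cells carried fibroblast transcripts. All 12 fibroblast markers lay over the olfactory receptor level in both groups, and their mean was 10.54 to 10.80 in tumor and 9.60 to 10.25 in normal samples. Of these markers 3 rose and 0 fell in limma (1 was lower at an unadjusted p under 0.05). Without tumor replicate 1 or 2, 1 rose, and without tumor replicate 3 or normal replicate 1, 4 rose. Of 18 endothelial markers, 12 had a mean over that level in tumor cells and 12 in normal cells, with list means of 4.01 to 4.09 in tumor and 3.71 to 3.88 in normal samples. TEK and TIE1, receptors of endothelium, lay under it in both groups. EMCN, the sialomucin endomucin, was an exception, at 9.41, 8.78 and 8.44 in tumor and 6.95, 7.21 and 7.41 in normal cells. EMCN and TIE1 rose and 0 of the 18 fell in limma, and 1 rose when any sample but normal replicate 1 was left out. At an unadjusted p under 0.05, 4 of the 18 were higher and 0 lower. The means of 4 lymphatic endothelial markers ran from 5.19 to 5.44 in tumor and from 4.86 to 5.40 in normal samples, with PROX1 called higher (adjusted p = 0.0146, and 0.0608 without normal replicate 2), though its means lay under the olfactory receptor level in both groups. PDPN in the same list differed by -1.16 and did not pass (adjusted p = 0.148, and 0.00244 without normal replicate 3). LYVE1 stood at 7.01, 7.79 and 6.82 in tumor and 6.93, 7.36 and 6.98 in normal cells (adjusted p = 0.817). It lay over the olfactory receptor level in all 6 samples.

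Other cell types were examined in the same way. Of 9 leukocyte markers, 5 had a mean over the olfactory receptor level in tumor cells and 4 in normal cells. Their list means were 3.71 to 3.84 in tumor and 3.45 to 3.63 in normal samples. CD68 rose and 0 fell in limma (1 was lower at an unadjusted p under 0.05). The pan-leukocyte gene PTPRC stayed between 2.20 and 2.44 in all 6 samples. Of 8 pericyte markers (means of 4.35 to 4.98 in tumor and 4.49 to 4.55 in normal samples), 2 rose and 2 fell. Those that rose numbered 1 without tumor replicate 1, normal replicate 1 or normal replicate 3 and 0 without tumor replicate 2 or normal replicate 2, and 1 fell without normal replicate 2. Of 9 epithelial markers, the keratins KRT8 (adjusted p = 0.0408, and 0.0800 to 0.135 without any sample but normal replicate 3), KRT18 and KRT19 fell, and the list mean was 3.66 to 3.72 in tumor and 4.03 to 4.52 in normal samples. KRT18 differed by -2.78 (adjusted p = 0.00632) and KRT19 by -2.05 (adjusted p = 0.000406). EPCAM, a defining epithelial marker, lay at 2.20 or lower in all 6 samples. Of the 9 epithelial markers, though, 6 had a mean over the olfactory receptor level in tumor cells and 6 in normal cells. In limma, 25% of fibroblast, 11.1% of endothelial and 25% of lymphatic endothelial markers were called. So were 11.1% of leukocyte, 50% of pericyte and 33.3% of epithelial markers, against 18.0% of all genes. The part of these marker differences in the results below was not tested. In such samples of mixed RNA, fewer cells of a type and less RNA per cell cannot be told apart.

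Tumor stromal cells differed from normal stromal cells in 5 of the 10 VEGF genes. VEGFD rose 9.45-fold, NRP1 2.76-fold and VEGFC 1.63-fold, and FLT1 fell to 0.211 and NRP2 to 0.600 of the normal level. VEGFA, VEGFB, PGF, KDR and FLT4 did not pass an adjusted p of 0.05 in limma. Over all 18010 genes, 18.0% passed, 8.56% as higher and 9.44% as lower in tumor cells. Tumor and normal samples were fully separated for 6 of the 10 members, against 35.7% of all genes. The median of the 10 log2 fold changes was 0.10 and that of their sizes without sign was 0.72, against 0.02 and 0.20 over all genes. Of the 10 members, 9 had a mean over the olfactory receptor level in at least 1 group, as had 12807 of the 18010 genes. In a fit of those 12807 genes alone, 3497 passed. Most genes in each list of the VEGF system below lay over the olfactory receptor level. The 18.0% of all genes is therefore a low comparison for their called shares.

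**Figure D1:**
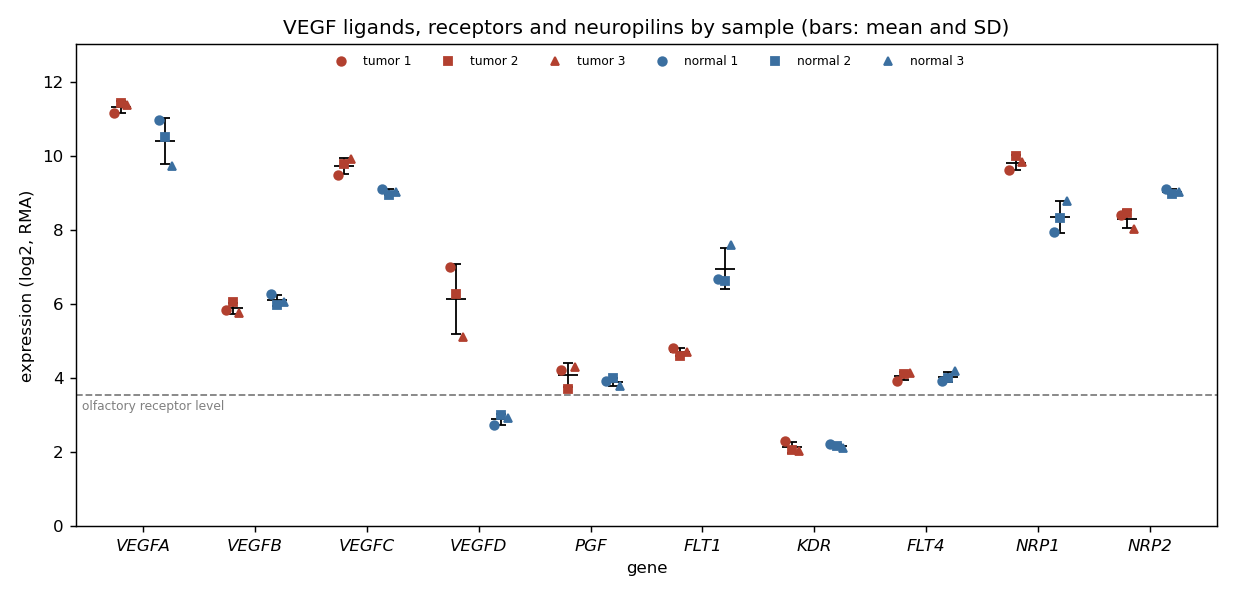
Expression (log2, RMA, y axis) of the 10 VEGF genes (x axis) in each tumor (red) and normal (blue) sample, with black bars for the mean and SD of 3 samples and a dashed line at the olfactory receptor level of 3.54. The tumor samples of VEGFD lie between 5.12 and 7.00, all above the normal samples, which lie under the dashed line, and the tumor samples of FLT1 lie under all normal samples.

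Among the ligands, VEGFD moved the most. It encodes a lymphangiogenic factor that signals through FLT4 and KDR in human. It stood at 7.00, 6.26 and 5.12 in tumor cells, against 2.72, 3.01 and 2.93 in normal cells. The groups were separated by 2.11, and tumor 1 was highest and tumor 3 lowest. The mean was 6.13 ± 0.95 in tumor and 2.89 ± 0.15 in normal cells (SD, n = 3 each), and the log2 fold change was 3.24 ± 0.41 (SE; adjusted p = 0.00206). This was rank 36 among the rises of 18010 genes. All normal samples lay under the olfactory receptor level, so the fold understates the difference if normal cells held no VEGFD transcript, and the tumor mean lay 2.59 above that level. The log2 fold change ran from 2.80 to 3.74 with 1 sample left out and passed each time.

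VEGFC, the other lymphangiogenic ligand, stood at 9.47, 9.78 and 9.91 in tumor cells and at 9.09, 8.94 and 9.02 in normal cells. All tumor samples lay above all normal samples, by at least 0.38, and the normal samples spread over only 0.15. The log2 fold change was 0.70 ± 0.14 (adjusted p = 0.0127). The call was lost without tumor replicate 2 (adjusted p = 0.0516) or normal replicate 2 (adjusted p = 0.0559).

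VEGFA, the main angiogenic ligand, stood at 11.14, 11.43 and 11.37 in tumor cells and at 10.97, 10.50 and 9.73 in normal cells. The groups did not overlap, but normal 1 lay only 0.17 under the lowest tumor sample and the normal samples spread over 1.24. The mean was 11.31 ± 0.15 in tumor and 10.40 ± 0.63 in normal cells (SD, n = 3 each). The log2 difference of 0.91 (95% interval 0.26 to 1.57 before adjustment) did not pass after adjustment (adjusted p = 0.0628). Without normal replicate 3 it was 0.58 (adjusted p = 0.0797), and without normal replicate 1 it was 1.20 and passed (adjusted p = 0.0154).

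VEGFB and PGF, ligands of FLT1, did not pass. VEGFB stood at 5.84, 6.05 and 5.75 in tumor cells and at 6.27, 5.97 and 6.04 in normal cells, with overlapping groups and a log2 difference of -0.21 (95% interval -0.53 to 0.10; adjusted p = 0.344). PGF stood at 4.22, 3.70 and 4.31 in tumor cells and at 3.92, 4.0 and 3.79 in normal cells, close to the olfactory receptor level, and differed by 0.17 (95% interval -0.23 to 0.58; adjusted p = 0.575). For PGF, tumor 2 lay under all normal samples while the other tumor samples lay above them.

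Of the receptors, FLT1 differed and KDR and FLT4 did not pass. FLT1 stood at 4.82, 4.59 and 4.71 in tumor cells, against 6.66, 6.61 and 7.58 in normal cells. The groups were 1.79 apart, and normal 3 was the highest sample. The mean was 4.71 ± 0.12 in tumor and 6.95 ± 0.55 in normal cells (SD, n = 3 each), a log2 fold change of -2.24 ± 0.25 (adjusted p = 0.00117) and rank 86 among the falls of all genes. Both groups stayed above the olfactory receptor level. The fall was -1.93 to -2.41 with 1 sample left out and passed each time.

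KDR lay between 2.04 and 2.29 in tumor samples and between 2.10 and 2.21 in normal samples, under the olfactory receptor level in all 6. Its log2 difference was -0.03 (95% interval -0.31 to 0.24; adjusted p = 0.888). At such a level the array does not show whether the cells held any KDR transcript. FLT4 stood at 3.93, 4.10 and 4.13 in tumor cells and at 3.91, 4.01 and 4.18 in normal cells, about 0.5 over that level, and differed by 0.02 (95% interval -0.26 to 0.30; adjusted p = 0.935).

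The neuropilins moved in opposite directions. NRP1, a co-receptor for VEGFA and for SEMA3A, stood at 9.60, 10 and 9.84 in tumor cells and at 7.94, 8.32 and 8.79 in normal cells. All tumor samples were higher, by at least 0.81. The log2 fold change was 1.46 ± 0.22 (adjusted p = 0.00417), from 9.81 ± 0.20 in tumor and 8.35 ± 0.43 in normal cells (SD, n = 3 each). NRP2, a co-receptor for VEGFC and for SEMA3F, stood at 8.40, 8.45 and 8.02 in tumor cells and at 9.10, 8.97 and 9.01 in normal cells. Here all tumor samples were lower, by at least 0.52, and the log2 fold change was -0.74 ± 0.14 (adjusted p = 0.0112), from 8.29 ± 0.24 in tumor and 9.03 ± 0.07 in normal cells. Both calls held with any 1 sample left out, with adjusted p up to 0.0220 for NRP1 and up to 0.0403 for NRP2.

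**Figure D2:**
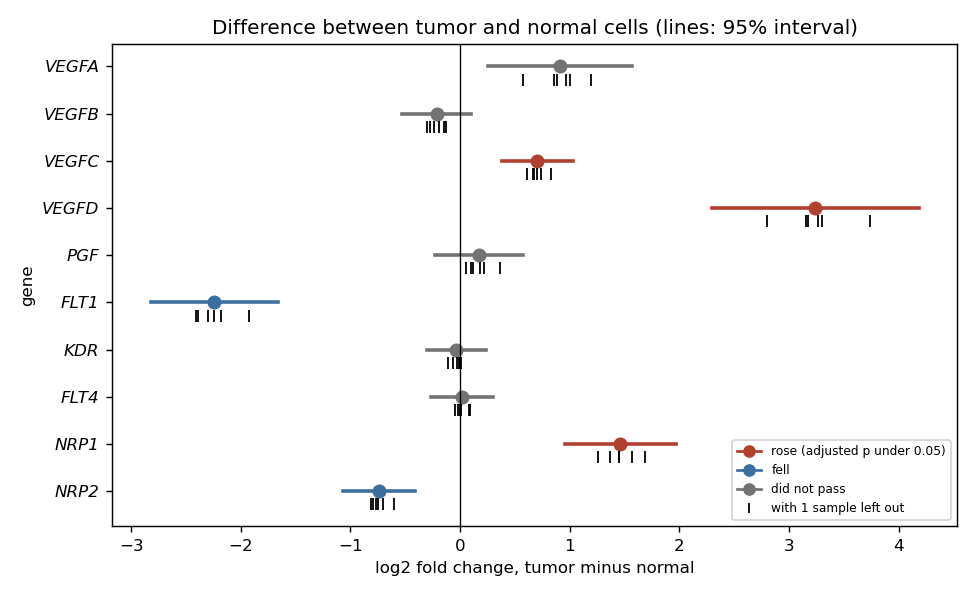
Log2 fold change, tumor minus normal (x axis), of the 10 VEGF genes (y axis), with the 95% interval before adjustment as a line and the values with 1 sample left out as black ticks. VEGFD, NRP1 and VEGFC lie to the right of 0 and FLT1 and NRP2 to the left, while VEGFA, at 0.91, did not pass after adjustment.

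The class 3 semaphorins, which share the neuropilins with VEGF, and their plexin receptors were given next. This list and those below were chosen with earlier results of these data known. Their called shares are therefore descriptions only. Of 12 measured genes 5 rose and 0 fell in limma (41.7% called, against 18.0% of all genes). The median log2 fold change was 0.31. At an unadjusted p under 0.05, 6 were higher and 0 lower. Without tumor replicate 2, tumor replicate 3 or normal replicate 2, 3 rose. SEMA3E, a ligand that binds PLXND1 directly, stood at 6.66, 4.92 and 5.20 in tumor cells and at 2.51, 2.66 and 2.60 in normal cells. Its groups did not overlap, and the fitted rise was 8.02-fold (adjusted p = 0.00256). The normal samples lay under the olfactory receptor level, so this fold, too, understates the difference if normal cells held no SEMA3E transcript. SEMA3D rose by 2.11 ± 0.27 (adjusted p = 0.00218), at 7.12, 6.57 and 6.51 in tumor and 4.09, 5.09 and 4.70 in normal cells. SEMA3F, the ligand of NRP2, rose by 0.74 ± 0.14 (adjusted p = 0.0103), at 8.56, 8.84 and 9.02 in tumor and 8.04, 8.08 and 8.09 in normal cells. SEMA3F was thus higher in the tumor samples in which its co-receptor NRP2 was lower.

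PLXND1, the receptor of SEMA3E, rose by 0.57 ± 0.13 (adjusted p = 0.0201), a call lost without tumor replicate 2, tumor replicate 3 or normal replicate 2 (adjusted p = 0.0751, 0.0559 and 0.0777). SEMA3B, named after its values were seen to complete the 5, rose by 0.47 and lost its call whichever sample was left out (adjusted p = 0.0587 to 0.149). SEMA3A, the ligand of NRP1, overlapped between the groups, at 7.88, 7.06 and 7.43 in tumor and 8.00, 7.27 and 6.61 in normal cells (adjusted p = 0.813). SEMA3C differed by -0.04 (95% interval -0.62 to 0.54; adjusted p = 0.936).

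**Figure D3:**
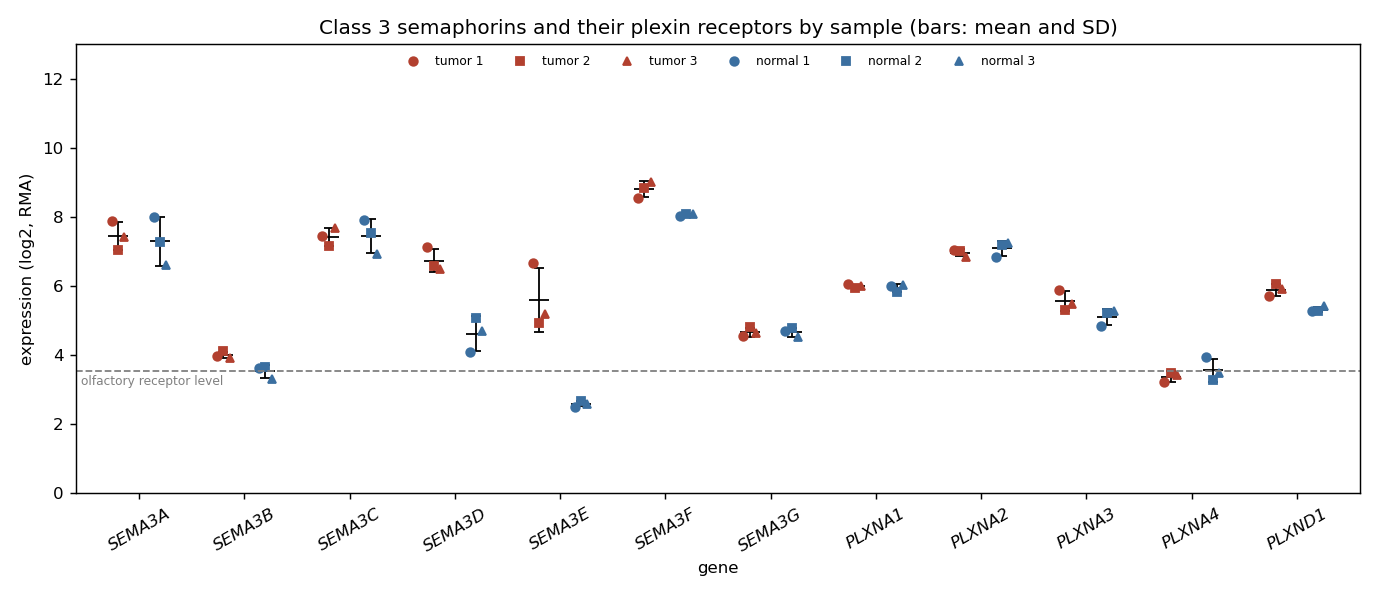
Expression (log2, RMA, y axis) of 7 class 3 semaphorins and 5 plexins (x axis) in each tumor (red) and normal (blue) sample, with black bars for the mean and SD of 3 samples and a dashed line at the olfactory receptor level of 3.54. SEMA3D and SEMA3E stand apart between the groups, with SEMA3E under the dashed line in all normal samples, and SEMA3A and SEMA3C overlap.

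VEGFC and VEGFD are secreted as precursors and gain activity when proteases cut them. Of 12 genes of this processing, 4 rose and 3 fell in limma (58.3% called, against 18.0% of all genes), with a median of 0.07. Only 1 rose without tumor replicate 1, tumor replicate 2 or normal replicate 2 and 2 rose without tumor replicate 3 or normal replicate 3. CCBE1, the secreted protein that brings the protease ADAMTS3 to VEGFC, stood at 8.92, 9.13 and 8.47 in tumor cells and at 8.03, 6.35 and 4.92 in normal cells. Normal 1 came close to the tumor samples and normal 3 lay far under them. The log2 fold change was 2.41 ± 0.66 (adjusted p = 0.0419), a call lost without any sample but normal replicate 1 (adjusted p = 0.0571 to 0.124).

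ADAMTS3 itself fell by 1.42 on the log2 scale (SE 0.30; adjusted p = 0.0163), at 6.55, 6.35 and 5.43 in tumor and 7.26, 7.41 and 7.93 in normal cells. CCBE1 and ADAMTS3 therefore differed in opposite directions. ADAMTS2, a related procollagen protease, rose by 0.90 ± 0.12 (adjusted p = 0.00232), at 9.03, 9.18 and 9.07 in tumor and 8.24, 8.29 and 8.06 in normal cells. PLAU, the urokinase that activates plasminogen, stood at 5.53, 5.99 and 6.14 in tumor and 8.47, 8.32 and 7.81 in normal cells and fell, with a log2 fold change of -2.31.

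Matrix and surface proteins hold VEGF near cells or act with its receptors. Of 22 such genes 6 rose and 3 fell in limma (40.9% called, against 18.0% of all genes), with a median of 0.25. Without tumor replicate 2 or normal replicate 2, 3 rose. GPC6, a glypican heparan sulfate proteoglycan, rose by 2.26 ± 0.16 (adjusted p = 0.00022), at 6.70, 6.73 and 6.54 in tumor and 4.49, 4.06 and 4.64 in normal cells. The syndecan SDC4 rose by 1.48 ± 0.19 (adjusted p = 0.00217). The integrin chain ITGB3, a partner of KDR in human endothelium, stood at 6.65, 6.86 and 7.75 in tumor and 8.98, 9.27 and 9.35 in normal cells and fell (log2 fold change -2.11 ± 0.27; adjusted p = 0.00229). CD44, the hyaluronan receptor, also fell (-1.51 ± 0.16; adjusted p = 0.000904). THBS1, an inhibitor of angiogenesis, differed by 0.45 ± 0.15 and did not pass (adjusted p = 0.0721, and 0.0311 without tumor replicate 3).

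Downstream of the receptors, 2 of 43 measured signaling genes rose and 7 fell in limma, with a median of -0.02. The called share of 20.9% was near the 18.0% of all genes. Only 4 fell without tumor replicate 2 or normal replicate 3, and 3 without normal replicate 2. PRKCB, a protein kinase C, stood at 2.61, 2.79 and 3.21 in tumor cells and at 7.54, 7.75 and 6.91 in normal cells, so that tumor samples lay under the olfactory receptor level. PTGS2, the inducible cyclooxygenase, stood at 6.82, 7.59 and 6.87 in tumor and 5.46, 3.97 and 4.20 in normal cells and rose by 2.55 ± 0.39 (adjusted p = 0.00453). PLA2G4A, the cytosolic phospholipase A2 that frees its substrate, rose by 1.41 ± 0.14 (adjusted p = 0.000666). The kinase MAPKAPK3 fell by 0.78 on the log2 scale (SE 0.14; adjusted p = 0.00774). PLCG1, the phospholipase bound by activated KDR, differed by -0.11 (95% interval -0.35 to 0.13; adjusted p = 0.552), and the endothelial nitric oxide synthase NOS3 by -0.14 (95% interval -0.65 to 0.37; adjusted p = 0.740).

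Of 22 regulators of VEGF transcription and mRNA stability, 6 rose and 0 fell in limma, with a median of 0.27. The called share was 27.3%, against 18.0% of all genes. All 22 had a mean over the olfactory receptor level in at least 1 group. Of the 12807 such genes, 3497 passed when fitted alone, so the share does not set this list apart. At an unadjusted p under 0.05, 1 was lower, and 1 fell without tumor replicate 3. EPAS1, the hypoxia-inducible factor HIF-2α, stood at 10.18, 10.44 and 10.54 in tumor cells and at 9.04, 9.52 and 9.45 in normal cells, with a log2 fold change of 1.05 ± 0.17 (adjusted p = 0.00513). HIF1A overlapped, at 11.58, 11.49 and 11.49 in tumor and 11.58, 11.34 and 10.49 in normal cells (adjusted p = 0.375), and normal 3 was its lowest sample, as it was for VEGFA. VHL, which marks these factors for breakdown, differed by 0.14 (95% interval -0.19 to 0.46; adjusted p = 0.585). ZFP36, which binds AU-rich mRNA and promotes its decay, stood at 8.14, 9.30 and 9.24 in tumor and 6.65, 6.07 and 6.08 in normal cells and rose by 2.63 ± 0.32 (adjusted p = 0.00172). FOS, an AP-1 subunit, rose by 2.27 ± 0.18 (adjusted p = 0.000278). The coactivator PPARGC1A rose by 1.42 ± 0.21 (adjusted p = 0.00375) and lay under the olfactory receptor level in normal cells. The estrogen receptor ESR1 stood at 7.05, 6.69 and 6.58 in tumor and 4.22, 4.19 and 3.49 in normal cells and rose.

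VEGFA is itself a gene induced by hypoxia. Of 25 other hypoxia-induced genes 8 rose and 0 fell in limma (32% called, against 18.0% of all genes), with a median of 0.36. All 25 had a mean over the olfactory receptor level in at least 1 group. Of the 12807 such genes, 3497 passed when fitted alone, a share nearer to that of this list. At an unadjusted p under 0.05, 1 was lower, and 1 fell without normal replicate 3. Only 3 rose without tumor replicate 2, tumor replicate 3 or normal replicate 2, and 4 without tumor replicate 1 or normal replicate 3. Without normal replicate 1, 11 rose. The mean of the list was 8.79, 8.77 and 8.80 in tumor samples and 8.70, 8.10 and 7.51 in normal samples. Normal 1 thus lay near the tumor samples and normal 3 under the rest, as for VEGFA. Among the normal samples, 19 of the 25 genes had normal 1 highest and normal 3 lowest, the arrangement of VEGFA, against 23.9% of the 18009 genes other than VEGFA. The share was 76.0% in this list, but it was also 59.1% among the 22 matrix and surface partners, 58.3% among the 12 fibroblast markers and 50% among the 12 VEGF-C processing genes, so the arrangement was not limited to hypoxia-induced genes. This is a description of 3 samples, and its part in the VEGFA difference was not tested.

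ADM, the vasoactive peptide adrenomedullin, stood at 10.29, 10.32 and 10.34 in tumor cells and at 8.99, 8.56 and 8.23 in normal cells and rose by 1.72 ± 0.19 (adjusted p = 0.00106). ANGPTL4, an angiopoietin-like protein, rose by 2.24 ± 0.35 (adjusted p = 0.00523), and PFKFB3, a regulator of glycolysis, stood at 8.28, 7.96 and 7.80 in tumor and 6.28, 5.74 and 5.26 in normal cells. The carbonic anhydrase CA9 stood at 8.09, 7.94 and 6.93 in tumor and 6.68, 3.83 and 2.87 in normal cells. Its rise of 3.19 ± 0.86 (adjusted p = 0.0387) was lost without any sample but normal replicate 1 (adjusted p = 0.0627 to 0.129). SLC2A1, the glucose transporter GLUT1, overlapped between the groups, at 8.84, 8.98 and 9.02 in tumor and 9.94, 9.10 and 8.05 in normal cells (adjusted p = 0.919).

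**Figure D4:**
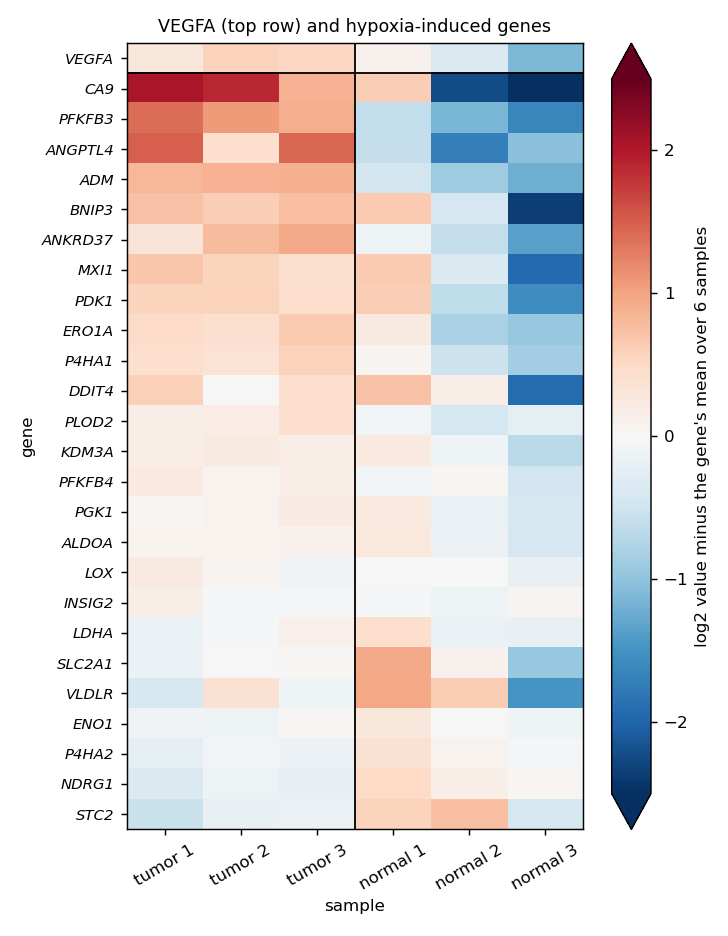
Log2 value of VEGFA (top row) and of 25 hypoxia-induced genes (y axis) in each tumor and normal sample (x axis), as the difference from each gene's mean over the 6 samples (color, log2 scale). VEGFA and 18 of the 25 other genes are lowest in normal 3, as are 4377 of all 18010 genes. So are 9 of 12 fibroblast markers, 10 of 18 endothelial markers and 10 of 43 signaling genes. Normal 1 is near the tumor samples for many of the genes shown. The list means of 8.79, 8.77 and 8.80 in tumor and 8.70, 8.10 and 7.51 in normal samples also show this.

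Among other angiogenic factors and inhibitors, some rose and some fell. In limma 9 of 29 passed as higher and 4 as lower (44.8% called, against 18.0% of all genes), with a median of 0.35. Without normal replicate 2, 5 passed as higher, and 2 passed as lower without tumor replicate 2, tumor replicate 3 or normal replicate 2. As higher, 12 passed without normal replicate 1 and 10 without tumor replicate 3. FGF2, basic fibroblast growth factor, stood at 9.51, 9.94 and 10.18 in tumor cells and at 8.85, 7.36 and 7.22 in normal cells. Its log2 fold change was 2.07 ± 0.41 (adjusted p = 0.0124, and 0.0518 without normal replicate 2). The inhibitors SERPINF1 and TIMP3 also rose. SERPINF1, pigment epithelium-derived factor, stood at 7.89, 6.81 and 6.08 in tumor and 3.86, 3.51 and 2.68 in normal cells, and TIMP3, which blocks VEGFA binding to KDR in human, at 10.89, 10.47 and 10.59 in tumor and 8.08, 9.00 and 9.11 in normal cells.

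EFNB2, the arterial ligand ephrin-B2, stood at 3.68, 4.72 and 5.03 in tumor and 6.05, 6.64 and 7.12 in normal cells and fell (-2.13 ± 0.38; adjusted p = 0.00829). The angiopoietins did not pass. ANGPT1 lay under the olfactory receptor level in both groups and differed by -0.19 (adjusted p = 0.324), and ANGPT2 lay near it and differed by -0.28 (adjusted p = 0.261).

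**Figure D5:**
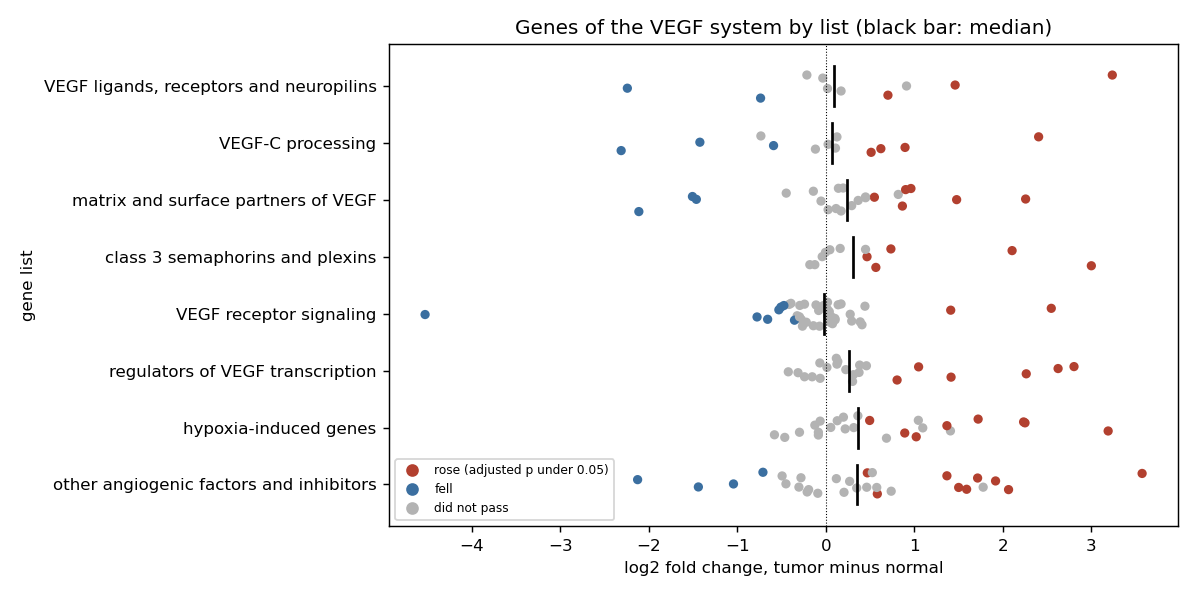
Log2 fold change, tumor minus normal (x axis), of each measured gene in the 8 lists of the VEGF system (y axis), with red for genes that rose, blue for genes that fell, grey for those that did not pass and a black bar at each list's median. The hypoxia-induced genes, the semaphorins and the regulators of VEGF transcription hold called genes to the right of 0 and none to the left.

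For each VEGF gene that passed, the 3 genes with the most similar pattern over the 6 samples were listed, out of 2132 others that varied enough (SD of at least 0.5). Pearson's r is given as a description only, since the 6 samples form the groups compared and so many genes reach a high r. VEGFD was most like CCDC172 (r = 0.9997), which stayed under the olfactory receptor level, CD68 (0.9989) and LONRF1 (0.9954). CD68, known from macrophage lysosomes, stood at 6.68, 6.48 and 6.07 in tumor and 5.17, 5.34 and 5.27 in normal cells. In VEGFD and CD68 tumor 1 was highest and tumor 3 lowest, an order that the choice by r favors. Among the tumor samples, 21% of the 18009 genes other than VEGFD had that order. FLT1 was most like LMCD1 (0.9987), WNT5A (0.9973) and VAX2 (0.9958), which like FLT1 were highest in normal 3. The choice by r favors this too. LMCD1 stood at 3.57, 3.44 and 3.38 in tumor and 5.39, 5.43 and 6.40 in normal cells. NRP1 was most like INHBB (0.9955), NEXMIF (0.9946) and CEMIP (0.9925), NRP2 most like PIANP (0.9964), MIR221 (0.9933) and LOC616063 (0.9927), and VEGFC most like EMP1 (0.9904), CNNM2 (0.9903) and NFIL3 (0.9901).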

How the data were processed

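The authors deposited log2 values; RMA is the tool that the submitters' processing notes name, a method that corrects background, equalizes arrays by quantiles and summarizes probes. Its version, the genome build and which part of each transcript was read are unknown here. Samples were grouped and numbered by their titles. Of 24415 rows, 18457 had 1 gene symbol in the platform annotation, 688 several and 5270 none here, and the row with the highest mean over 6 samples stood for each of 18010 genes. Entrez identifiers of 9 of the 10 members matched RefSeq (ARS-UCD2.0) under the same symbol; FLT4 had none and was matched by symbol. No coordinates are given.

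Tumor minus normal was fitted in R 4.3.3 with lmFit and eBayes of limma 3.58.1, two-sided, without covariates or a filter. P-values were adjusted by Benjamini-Hochberg over all genes, with a threshold of 0.05. SE stands beside fold changes and SD beside means. The fit was checked on simulated data. Lists came from textbook knowledge. Genes named from them were up to 4 called genes with the largest change and 18 fixed by name. Members and lists were chosen with earlier results of these data known. Array number, not depth, limits precision; dates of scanning were not analysed here, so batches were not examined. Same-numbered tumor and normal samples deviated from their group means with correlations of 0.05, -0.08 and 0.07, and other pairs with -0.09 to 0.07. With 3 samples per group, such values cannot tell whether the numbers pair samples. Alternatives changed the normalization, the filter on dim rows, the variance prior, array weights, the row per gene and the samples.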

Additional observations from a re-analysis of the deposited data

How the results depend on the processing

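The number of VEGF genes called was 4 to 6 with 1 sample left out, with 2 to 4 higher and 2 lower each time. FLT1, VEGFD, NRP1 and NRP2 passed in all 16 alternatives. VEGFC passed in 14 (lost without tumor replicate 2 or normal replicate 2), and VEGFA passed in 3, which were a mean-variance trend (adjusted p = 0.0478), array weights (0.0128) and without normal replicate 1 (0.0154). VEGFB, PGF and FLT4 passed in 0 of 16, and KDR in 0 of 14, since both filters on dim rows left it out. No called member changed direction. Over all genes, 1765 to 3226 passed with 1 sample left out (876 to 1451 higher and 889 to 1775 lower), and 5054 with array weights (2362 higher and 2692 lower). The 7 other lists of the VEGF system held 165 genes (cell type markers not counted). Beside 18.0% of all genes, and 3497 of the 12807 over the olfactory receptor level fitted alone, 57 of the 165 were called. With 1 sample left out, 33 to 60 were called (22 to 44 higher and 11 to 16 lower). The replicate block, for a pairing that the labels do not name, called 5 VEGF genes, 48 listed genes and 2895 genes in all. It changed no call of a VEGF gene. Levels near or under the olfactory receptor level, as for KDR, FLT4 and PGF in both groups and VEGFD and SEMA3E in normal cells, limit what the array can show there.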
